A study of Mus musculus with 15 samples.

Results

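The genes described here encode the proteins that cap chromosome ends, and a few that copy or trim them, in mouse brain tumours. They are 10 named genes of the 54232 in the deposited tables, listed by what they do, though with earlier results of these data known. They comprise the 7 shelterin genes Terf1, Terf2, Terf2ip, Pot1a, Pot1b, Tinf2 and Acd, and with them Tert, Rtel1 and Dclre1b. Shelterin is a complex that coats the TTAGGG repeats of telomeres and keeps the DNA damage machinery from treating chromosome ends as breaks. Terf1 and Terf2 bind the duplex repeats, Pot1a and Pot1b bind the single-stranded overhang, and Tinf2 and Acd bridge them, Acd also recruiting telomerase. Loss of ATRX in human tumours is tied to lengthening of telomeres by recombination without telomerase, which is why these genes are read here against Atrx status.

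RNA was sequenced in 15 libraries of tumours taken from the frontal cortex of C57BL/6 mice at a functional end point, and the labels give no ages. All mice carried the avian virus receptor Tv-a under the Nestin promoter, so that infection is limited to cells that used this promoter, and floxed p53 on both alleles. DF-1 cells injected into the cortex carried RCAS-Cre, RCAS-PDGFA and an RCAS vector for histone H3.3 fused to GFP. The 4 groups were p53 fl/fl; ATRX fl/fl mice with H3.3G34R (ATRXfl_G34R, n = 4) or with H3.3WT (ATRXfl_WT, n = 4), and p53 fl/fl mice with intact Atrx and H3.3G34R (p53_G34R, n = 3) or H3.3WT (p53_WT, n = 4). H3.3G34R is the histone H3.3 substitution of hemispheric gliomas. Whether each library is a different animal is not stated in the labels; p-values therefore measure only how far these libraries spread, which may be technical.

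Libraries held 22807315 to 35679129 reads in genes. Atrx, the targeted gene, stood at 2376 ± 619 normalized counts (SD, n = 8) in floxed and 6687 ± 1395 (n = 7) in intact tumours, with no overlap (log2 difference -1.51; 2-sided exact permutation p = 0.0001554, the smallest that the 6435 splits can give). Normalized counts are reads divided by a size factor for each library. Mature neuron markers, which the labelled tissue should hold, were detected in every library, with a summed normalized count of 1084 to 258061. The highest sum was in p53_WT replicate 3, which also had the highest sum of mature oligodendrocyte markers (108384) and the lowest of oligodendrocyte progenitor markers (22230, against 141562 or more in the other libraries). ATRXfl_G34R replicate 3 followed in both mature lists (22682 and 98932).

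The promoters of the 5 members whose values are discussed most are shown first, because they show what the pairs that varied together do and do not share near their starts. Each is the RefSeq sequence (GRCm38.p6) from 250 bases before to 50 after the start in the RefSeq table, 5′ to 3′ on the gene's strand. For Acd that start lies 126 bases upstream of the one in GENCODE, so its whole window is upstream of the gene as given there. Capitals mark every match, on either strand, to GGGCGG (the GC box), CCAAT (the CCAAT box) or TTAGGG (the telomere repeat unit).
Acd (chr8:105701179-105701478, minus strand): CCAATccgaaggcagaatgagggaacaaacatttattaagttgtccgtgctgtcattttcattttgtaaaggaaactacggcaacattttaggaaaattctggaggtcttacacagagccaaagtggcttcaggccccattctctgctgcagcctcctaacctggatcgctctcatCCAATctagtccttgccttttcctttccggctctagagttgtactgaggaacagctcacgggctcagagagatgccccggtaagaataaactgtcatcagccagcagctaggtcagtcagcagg
Terf2 (chr8:107096496-107096795, minus strand): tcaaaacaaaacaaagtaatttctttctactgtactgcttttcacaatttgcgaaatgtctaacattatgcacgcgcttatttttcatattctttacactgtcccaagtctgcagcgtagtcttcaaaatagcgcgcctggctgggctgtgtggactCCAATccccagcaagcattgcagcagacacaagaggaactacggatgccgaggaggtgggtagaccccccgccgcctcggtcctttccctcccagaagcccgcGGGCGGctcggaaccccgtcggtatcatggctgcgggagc
Pot1a (chr6:25809169-25809468, minus strand): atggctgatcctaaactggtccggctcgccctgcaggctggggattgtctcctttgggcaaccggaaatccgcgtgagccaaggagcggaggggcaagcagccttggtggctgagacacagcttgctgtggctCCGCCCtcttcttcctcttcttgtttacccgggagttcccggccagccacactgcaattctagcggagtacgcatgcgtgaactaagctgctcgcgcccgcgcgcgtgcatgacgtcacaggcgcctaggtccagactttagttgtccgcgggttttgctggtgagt
Pot1b (chr17:55712587-55712886, minus strand): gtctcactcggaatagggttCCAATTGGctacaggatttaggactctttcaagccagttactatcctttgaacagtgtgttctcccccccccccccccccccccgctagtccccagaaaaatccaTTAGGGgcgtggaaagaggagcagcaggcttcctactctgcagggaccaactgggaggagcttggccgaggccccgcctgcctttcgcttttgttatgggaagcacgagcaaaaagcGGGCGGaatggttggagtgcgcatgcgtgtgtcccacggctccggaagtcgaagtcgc
Tert (chr13:73626661-73626960, plus strand): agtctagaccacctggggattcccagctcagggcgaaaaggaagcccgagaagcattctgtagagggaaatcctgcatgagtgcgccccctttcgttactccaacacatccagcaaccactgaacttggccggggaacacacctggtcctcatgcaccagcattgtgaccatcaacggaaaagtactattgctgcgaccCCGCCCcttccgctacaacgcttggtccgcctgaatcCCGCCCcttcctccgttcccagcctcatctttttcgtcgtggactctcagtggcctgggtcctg

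Of the 10 members, 9 had a promoter in the RefSeq table. GGGCGG was found in 7 of these 9, against 35.9% of 27025 promoters, and CCAAT in 3 of 9, against 37.9%. Acd had no GC box and a pair of CCAAT boxes, whereas Terf2 had 1 of each. Pot1b held the only TTAGGG match among the members (10.5% of all promoters hold one), and its 2 CCAAT matches overlap each other on opposite strands. Tert had a pair of GC boxes close to its start and no CCAAT box. An E2F-type site, TTTCCCGC, was found only in Terf2ip among the members (1.11% of all promoters), and neither CACGTG, the E-box of MYC (7.24%), nor TTTGGCGC (0.537%) was found in any of them. The members' promoters had a median of 18 CpG dinucleotides and 57.3% GC, against 7 and 52.7% over all promoters. A match is a description of the letters and not evidence of binding.

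All 10 genes were expressed in every tumour, and shelterin was not present at equal transcript levels. Levels between genes are compared as TPM, that is, reads per base of exon scaled to the same total in every library. Acd, encoding the TPP1 protein, was the highest at 60.3 ± 17.2 TPM (SD, n = 15), followed by the duplex binder Terf2 at 48.9 ± 10.3 TPM and by its partner Terf2ip (RAP1) at 45.3 ± 7.04 TPM. Rtel1, a helicase that unwinds telomeric loops, stood at 37.4 ± 12 TPM, and Tinf2 (TIN2), the central bridge, at 33.2 ± 8.98 TPM. A lower tier held Terf1 (13.7 ± 3.27 TPM), Pot1a (11.4 ± 3.70 TPM), the nuclease gene Dclre1b, which encodes Apollo (11.3 ± 3.15 TPM), and Pot1b (9.48 ± 3.14 TPM). Tert, the catalytic subunit of telomerase, was the lowest at 1.75 ± 0.785 TPM.

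The order held in every tumour at some steps and changed at others. Acd was the highest member in 11 of 15 libraries and Terf2ip in the other 4. Acd exceeded Terf2 in 15 of 15 libraries, Tinf2 exceeded Terf1 in 15 of 15, and Pot1b exceeded Tert in 15 of 15. Other neighbours changed places: Terf2 exceeded Terf2ip in 10 of 15 libraries, Rtel1 exceeded Tinf2 in 9 and Pot1a exceeded Dclre1b in 9. Only the last step, from Pot1b to Tert, had ranges over the libraries that did not overlap. Tert rested on 22 to 134 reads per library, and each of the other members on at least 157. Acd and Tinf2 share 33.3% and 31.2% of their exon bases with a gene on the opposite strand, Carmil2 and Gmpr2. The strand setting of the counting is not given in the sources used here, so reads in those stretches cannot be told apart, and the levels of these genes per length are less certain.

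**Figure D1:**
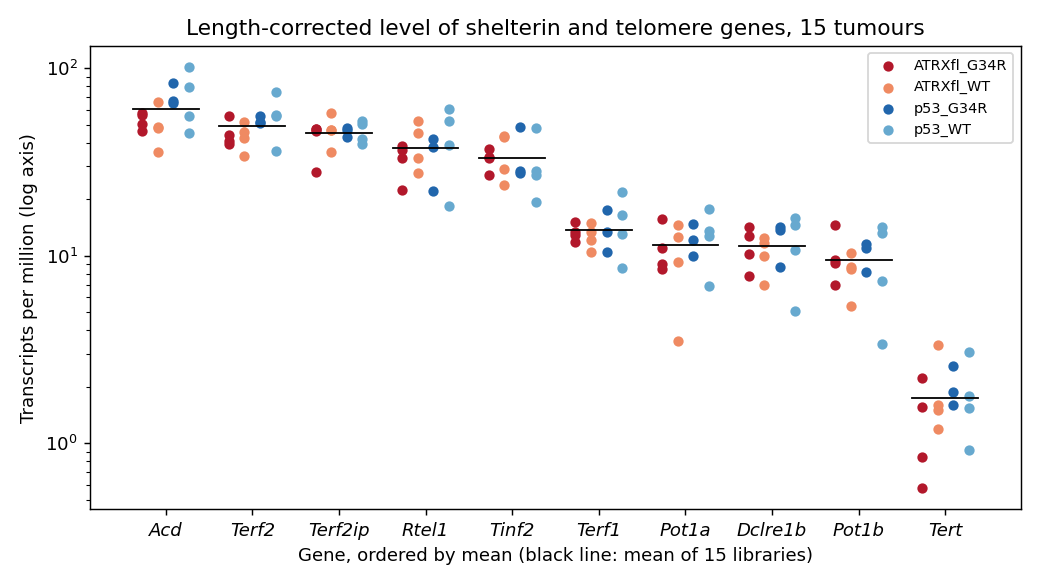
TPM of the 10 genes on a log axis, 1 point per library coloured by group, with the mean of 15 libraries as a black line. Acd is at the top with a mean of 60.3 and Tert at the bottom with 1.75, below every value of Pot1b.

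The mouse has a pair of POT1 genes where human cells have a single one, and both were used in these tumours. Pot1a is the copy that holds back ATR signalling at telomeres, and Pot1b the copy that controls trimming of the C-rich strand. The ratio of Pot1a to Pot1b in TPM was 1.24 ± 0.342 (n = 15), with a range of 0.648 to 2.04. Both extremes came from tumours with H3.3WT, ATRXfl_WT replicate 2 at the low end and p53_WT replicate 3 at the high end. The floxed groups had mean ratios of 1.11 ± 0.122 (ATRXfl_G34R) and 1.15 ± 0.421 (ATRXfl_WT), the intact groups 1.20 ± 0.0898 (p53_G34R) and 1.51 ± 0.464 (p53_WT), and all overlapped. The duplex binders were less balanced, with a Terf2 to Terf1 ratio of 3.65 ± 0.668 (range 2.54 to 4.91), and Terf2 was the higher of them in every library.

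The comparison of Atrx-floxed with Atrx-intact tumours asks whether transcript levels of these genes go with Atrx status. The data hold no measure of telomere length or of telomerase activity. No member passed the test (limma, Benjamini-Hochberg adjusted p under 0.05) in any form of this comparison. Over both histones, 0 of 10 members were called, where 0.107% of the 17776 tested genes were, and edgeR and DESeq2 called none of the 10 either. By an unadjusted limma p under 0.05, 1 of 10 passed (Acd), where 5.48% of genes did. The median log2 difference of the members was -0.06, beside 0.00 for all tested genes, with 8 lower and 2 higher in floxed tumours. The 95% intervals of 9 of the 10 members lay within a 2-fold difference in either direction.

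The member furthest apart was Acd. Its normalized counts in ATRXfl_G34R were 1349, 1373, 1038 and 1452, and in ATRXfl_WT 1340.3, 1192, 1491 and 859. In the intact tumours they were 1782, 1923 and 1451 in p53_G34R and 1355, 2308, 1227 and 1804 in p53_WT. No floxed tumour was above 1491, whereas 4 of the 7 intact tumours were, and the other 3 lay within the floxed range. The means were 1262 ± 218 (n = 8) in floxed and 1693 ± 374 (n = 7) in intact tumours, a log2 difference of -0.42 (SE 0.17, 95% interval -0.77 to -0.07; limma adjusted p = 0.828). The limma adjusted p was the one reported, and over 25 alternatives the adjusted p ranged from 0.311 to 0.9997, so that Acd is not called. Its log2 difference was negative in all 25, which refit the same libraries and are not independent of each other. Its overlapping antisense neighbour Carmil2 had a median of 70 reads per library, and its part in the Acd difference was not tested. Acd also ran against the summed mature neuron markers over the 15 libraries (r = -0.48, and -0.64 without p53_WT replicate 3). That sum was 3011 to 22682 in floxed and 1084 to 258061 in intact tumours. The 258061 was in p53_WT replicate 3, and the next highest intact library, p53_WT replicate 4, had 5975. Eno2 alone averaged 4499 normalized counts in floxed tumours and had a floxed minus intact log2 difference of 1.33 over both histones. It was the 1 marker of 10 with a positive value, beside 9 negative ones (list median -0.49). Eno2 was thus a large part of the sum in floxed tumours, where the sum need not follow the rest of its list. In p53_WT other markers weighed as much. Slc17a7 averaged 9861 ± 19563 normalized counts there and Eno2 8137 ± 14509 (n = 4, scaled with ATRXfl_G34R). The part of the sum in the Acd difference was not tested either.

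Split by histone, Acd was lower by a like amount with each. With H3.3G34R it stood at 1303 ± 184 (n = 4) in floxed against 1721 ± 244 (n = 3) in intact tumours, a log2 difference of -0.40 (SE 0.20; limma adjusted p = 0.9999). All but the lowest intact library lay well above the floxed range, and that library, p53_G34R replicate 3, stood at 1451 beside the highest floxed one at 1452 on the scale of all 15 libraries. On the scale of the pair's own table the groups did not overlap, as for 4.64% of all tested genes there. With H3.3WT the difference was -0.45 (SE 0.28; limma adjusted p = 0.975), from 1219 ± 272 to 1681 ± 499 (n = 4 each), and the groups overlapped. The interaction of Atrx status with the histone was 0.04 for Acd (SE 0.34, 95% interval -0.70 to 0.77), which spans a difference between the histones of up to 1.71-fold.

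Terf2, the member that blocks end-to-end fusion, came next by p. Its counts were 1639, 1362, 1161 and 1441 in ATRXfl_G34R, 1495, 1438, 1488 and 1035 in ATRXfl_WT, 1875, 1496 and 1431 in p53_G34R, and 1705, 2164, 1253 and 1627 in p53_WT. Of the 7 intact tumours, 3 exceeded every floxed one, and the groups overlapped. The log2 difference over both histones was -0.25 (SE 0.14, 95% interval -0.56 to 0.06; limma adjusted p = 0.928), from 1382 ± 195 (n = 8) to 1650 ± 302 (n = 7). Its r with the same sum of mature neuron markers, of which Eno2 was a large part in floxed tumours, was -0.60 (-0.73 without p53_WT replicate 3). The part of these markers in the Terf2 difference was not tested.

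Tert had the widest intervals. Its counts were 57.3, 22.4, 79.0 and 38.6 in ATRXfl_G34R, 70.4, 46.7, 54.0 and 127 in ATRXfl_WT, 79.0, 58.0 and 90.5 in p53_G34R, and 68.3, 32.95, 66.7 and 111 in p53_WT. The lowest and the highest library both came from floxed tumours, and every pair of groups overlapped. With H3.3G34R the floxed minus intact difference was -0.73 in log2 (SE 0.50, 95% interval -1.88 to 0.41; limma adjusted p = 0.9999), and with H3.3WT it was 0.10 (SE 0.52, 95% interval -1.08 to 1.28; adjusted p = 0.997). The interaction was -0.84 (SE 0.72, 95% interval -2.37 to 0.70; limma adjusted p = 0.9996). A 2-fold lower level in floxed tumours lay within the interval in both pairs, and a 2-fold higher level only in that with H3.3WT. Without ATRXfl_G34R replicate 2, the library with the lowest count, the difference with H3.3G34R was -0.41 and the interaction -0.51. The interaction was also -0.52 without p53_WT replicate 2 and -0.55 without ATRXfl_WT replicate 4.

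The remaining members lay close to no difference over both histones. The log2 difference of floxed minus intact was -0.07 for Terf1 (SE 0.19), -0.02 for Terf2ip (SE 0.14) and -0.01 for Pot1b (SE 0.26). Tinf2 stood at 0.13 (SE 0.20), Rtel1 at 0.01 (SE 0.20) and Dclre1b at -0.06 (SE 0.22). Pot1a was at -0.29 (SE 0.27), and its counts in ATRXfl_WT were 614, 208, 679.6 and 832, of which replicate 2 lay far below every other library of the study. The next lowest Pot1a count was 450.5, in p53_WT replicate 3. Without ATRXfl_WT replicate 2 the Pot1a difference over both histones was -0.06, and with H3.3WT alone it went from -0.44 to 0.00.

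**Figure D2:**
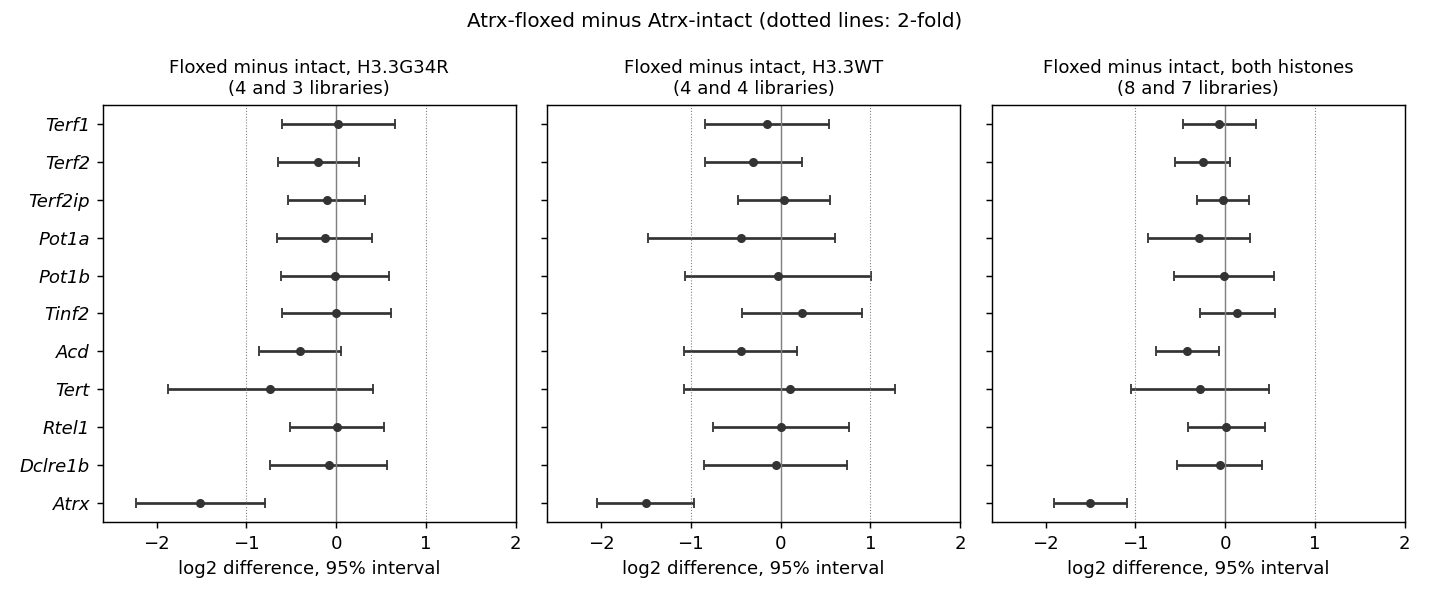
Log2 difference of Atrx-floxed minus Atrx-intact tumours with its 95% interval for the 10 genes and for Atrx itself, with H3.3G34R (left), with H3.3WT (middle) and over both histones (right); dotted lines mark a 2-fold difference. Atrx lies at about -1.5 in each panel, and among the 10 genes only the interval of Acd over both histones (-0.77 to -0.07) leaves out 0, without passing the adjusted threshold.

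The 2 pairwise comparisons by Atrx status gave 0 of 10 members called. With H3.3G34R the share of all genes called was 0.0229%, and the members' median log2 difference was -0.09 (all genes 0.00). With H3.3WT the share was 0.0335%, and the members' median was -0.04 (all genes -0.01). No member had an unadjusted p under 0.05 in either, where 3.39% and 3.76% of genes did. Atrx itself, the deleted gene, was not called in either pair by the same limma test (log2 -1.51, adjusted p = 0.664 with H3.3G34R, and adjusted p = 0.238 with H3.3WT, where its mean normalized count was 2459.6 against 7008), nor in ATRXfl_G34R against p53_WT (log2 -1.65, adjusted p = 0.480). It was called over both histones (limma adjusted p = 0.00293), and DESeq2 called it in all 3 pairs (adjusted p = 0.0211, 0.000364 and 0.00562). A count of 0 of 10 in these pairs therefore says little about differences of such a size.

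The comparison of H3.3G34R with H3.3WT asks whether the mutant histone goes with other levels of telomere genes. It gave no called member either: 0 of 10 in Atrx-floxed tumours, in Atrx-intact tumours and over both, with 0.0% of all genes called in each. No member had an unadjusted p under 0.05, against 2.79% of genes in floxed tumours, 1.47% in intact tumours and 2.37% over both. The median log2 difference of the members was 0.06 in floxed tumours, 0.03 in intact tumours and 0.03 over both, with 6, 5 and 5 of 10 members higher with H3.3G34R. Over both Atrx states the 95% intervals of 9 members lay within 2-fold, all but that of Tert, whose lower bound passed it.

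Rtel1 had the smallest p by histone. Its counts were 1645, 1487, 1512 and 1179 in ATRXfl_G34R, 1392, 1502, 2159.8 and 1969.7 in ATRXfl_WT, 1078, 1766 and 1528 in p53_G34R, and 1720.2, 2511, 913 and 2188 in p53_WT. The 4 highest libraries all carried H3.3WT, and so did the lowest one, p53_WT replicate 3, the library with the highest neuron and oligodendrocyte marker sums. The log2 difference of H3.3G34R minus H3.3WT was -0.26 (SE 0.20; limma adjusted p = 0.9994), from 1456 ± 245 (n = 7) to 1794 ± 516 (n = 8). Without p53_WT replicate 3 it was -0.39 (limma adjusted p = 0.9995). The same library moved Rtel1 in ATRXfl_G34R against p53_WT, from -0.24 (adjusted p = 0.9992) to -0.55 without it (limma adjusted p = 0.528). The part of the marker sums in these differences was not tested.

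Pot1b had a log2 difference of 0.27 by histone over both Atrx states (SE 0.26, 95% interval -0.28 to 0.83; adjusted p = 0.9994). It was 0.11 without p53_WT replicate 3 and 0.18 without ATRXfl_WT replicate 2, and it reached 0.37 when another library was left out. Its counts were 311, 340.4, 478 and 294 in ATRXfl_G34R, 344, 195, 339 and 303 in ATRXfl_WT, 317, 368 and 372 in p53_G34R, and 260.3, 472, 134 and 440.1 in p53_WT. The 2 lowest libraries carried H3.3WT, and the mutant tumours lay inside the range of the others except for the highest library. Pot1a in Atrx-floxed tumours turned on 1 library: H3.3G34R minus H3.3WT was 0.29 (SE 0.41; adjusted p = 0.9997) with ATRXfl_WT replicate 2 and -0.15 without it.

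The tumours with both changes, ATRXfl_G34R, were compared with those with neither, p53_WT. Of the members 0 of 10 were called, where 0.0227% of genes were, and none had an unadjusted p under 0.05, where 4.37% did. Tert stood at -0.51 in log2 (SE 0.54), Acd at -0.32 (SE 0.25), Pot1b at 0.26 (SE 0.43) and Tinf2 at 0.20 (SE 0.28). The median of the members was -0.13, beside -0.01 for all genes. This comparison shares its libraries with those above. The interaction over all 15 libraries also called 0 of 10 members and 0.0% of genes, and 2.05% of genes but no member had an unadjusted p under 0.05. Its intervals were wide: those of 4 members lay within 2-fold.

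In the authors' deposited tables of the 5 pairs, 0 of 10 members were past an adjusted p of 0.05 and none had an unadjusted p under 0.05. Those tables hold 12 to 113 genes past that threshold, or 0.182% of the genes with an adjusted p for ATRXfl_G34R against ATRXfl_WT, 0.0578% for p53_G34R against p53_WT, 0.538% for ATRXfl_G34R against p53_G34R, 0.352% for ATRXfl_WT against p53_WT and 0.38% for ATRXfl_G34R against p53_WT.

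**Figure D3:**
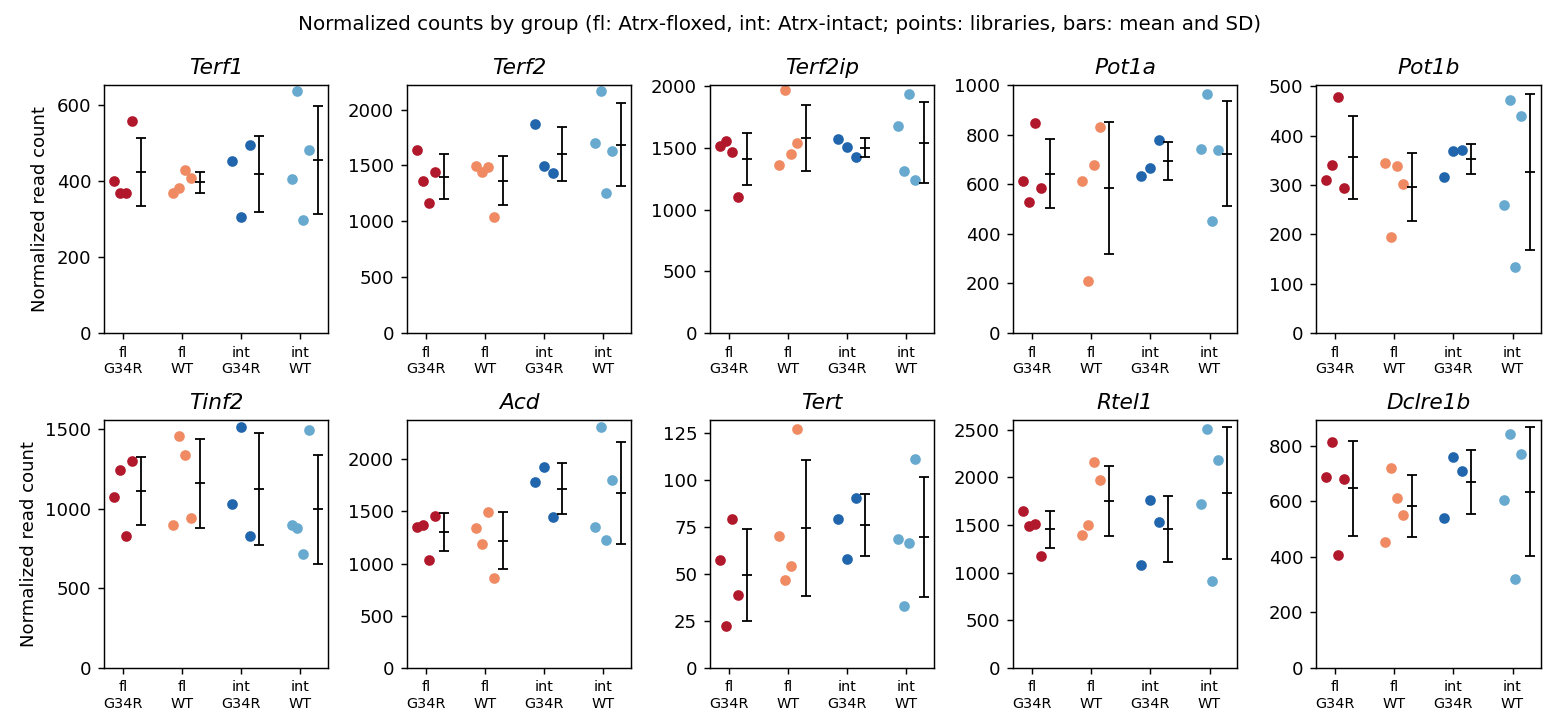
Normalized read counts of each gene in the 4 groups (fl, Atrx-floxed; int, Atrx-intact; G34R or WT, the histone), with 1 point per library and the mean and SD beside them; axes start at 0. In every panel floxed and intact tumours overlap, and the p53_WT group (int WT) has the largest SD for 7 of the 10 genes, all but Pot1a, Tinf2 and Tert.

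Each of the 10 genes varied less between tumours than the median gene of like level (within 0.5 in log2). The coefficient of variation over the 15 libraries was 26.6% for Rtel1, beside a median of 27.1% for genes of like level, and 24.97% for Acd, beside 27.5%. Terf2ip was the steadiest member at 15.3% (27.3% for genes of like level), followed by Terf2 at 18.4% (27.3%) and Terf1 at 21.3% (38.2%). Tert varied most among the members, at 42.1%, yet below the 62.7% of genes with as few reads. Pot1a spanned 4.63-fold between its lowest and highest library and Terf2ip 1.78-fold.

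A few tumours carried much of the spread. p53_WT replicate 2 had the highest count of 6 of the 10 members (Terf1, Terf2, Pot1a, Acd, Rtel1 and Dclre1b), and p53_WT replicate 3 the lowest count of 5 (Terf1, Pot1b, Tinf2, Rtel1 and Dclre1b). Terf2ip went the other way in both: it stood at 1312 in replicate 2 and at 1939, its second highest value, in replicate 3. These tumours also stood at opposite ends of the proliferation genes within their group, a list of 15 cell cycle genes whose summed normalized count was 103272 in replicate 2 and 13928 in replicate 3. In bulk tissue a smaller share of a cell type and less RNA per cell cannot be told apart.

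Across the 15 libraries several members moved with the proliferation genes. These correlations of log2 normalized counts are descriptions, over libraries that share depth and tissue makeup. Terf1 had the highest r with the summed proliferation genes, 0.77 (0.71 without p53_WT replicate 3). The gene with the pattern most like Terf1 among 14760 compared was Ube2c (r = 0.91), a mitotic ubiquitin ligase component. Eed and Mogs were close behind (r = 0.88 each). After Terf1 in r with the proliferation genes came Dclre1b (0.67), Rtel1 (0.64), Pot1b (0.60) and Pot1a (0.56), and Terf2ip ran against the list (-0.60). Without p53_WT replicate 3 these were 0.53, 0.51, 0.42, 0.52 and -0.49 in the same order. Tert showed no such relation (-0.21). Dclre1b and Rtel1 had the most negative r with mature oligodendrocyte markers, -0.77 and -0.70 (-0.63 and -0.55 without p53_WT replicate 3).

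Between the members themselves, 31 of 45 pairs had a positive r, with a median of 0.22, and 8 pairs were above 0.5. Without p53_WT replicate 3, 28 of the pairs were positive and 4 were above 0.5. The closest pair was Terf2 and Acd (r = 0.86; 0.85 without p53_WT replicate 3; 0.82 after removing group means). Of all 14760 genes Terf2 was the one most like Acd by Pearson r, and both were like Nthl1, a DNA glycosylase gene (r = 0.88 with Terf2 and 0.80 with Acd). By ranks of the libraries (Spearman rho) Acd had 0.69 with Terf2 and 0.70 with Trappc1. The r without p53_WT replicate 2, the highest library of both Terf2 and Acd, was not computed. Terf2 and Acd lie on the same strand of chromosome 8, at 107069400 to 107096547 and 105695860 to 105701102 in mm10. Their promoters above both hold CCAAT, as 37.9% of all promoters do, while only that of Terf2 has a GC box. Terf2ip lies on chromosome 8 as well, and its r was -0.38 with Acd and -0.23 with Terf2. The part of location or of these letters in the shared pattern was not tested. The paralogs Pot1a and Pot1b had an r of 0.70 (0.77 without p53_WT replicate 3). The gene most like Pot1a was Impg2 (r = 0.94), and the one most like Pot1b was Nmrk1 (r = 0.85, 0.70 without that library).

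The 3 pairs below -0.5 over the 15 libraries all involved Terf2ip, which opposed Pot1b (r = -0.71), Terf1 (-0.66) and Pot1a (-0.59). Without p53_WT replicate 3 there were 4 such pairs, the same 3 and Pot1a with Tinf2 (-0.53, against -0.35 with that library). Terf2ip also has roles outside telomeres, and its protein is held at chromosome ends by Terf2, yet Terf2ip and Terf2 had an r of -0.23. The gene most like Terf2ip was Ahdc1 (r = 0.92). Tinf2 was most like Reps1 (r = 0.86), Tert most like Stard5 (r = 0.88), Rtel1 most like Tex9 (r = 0.90) and Dclre1b most like Zfp451 (r = 0.92).

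**Figure D4:**
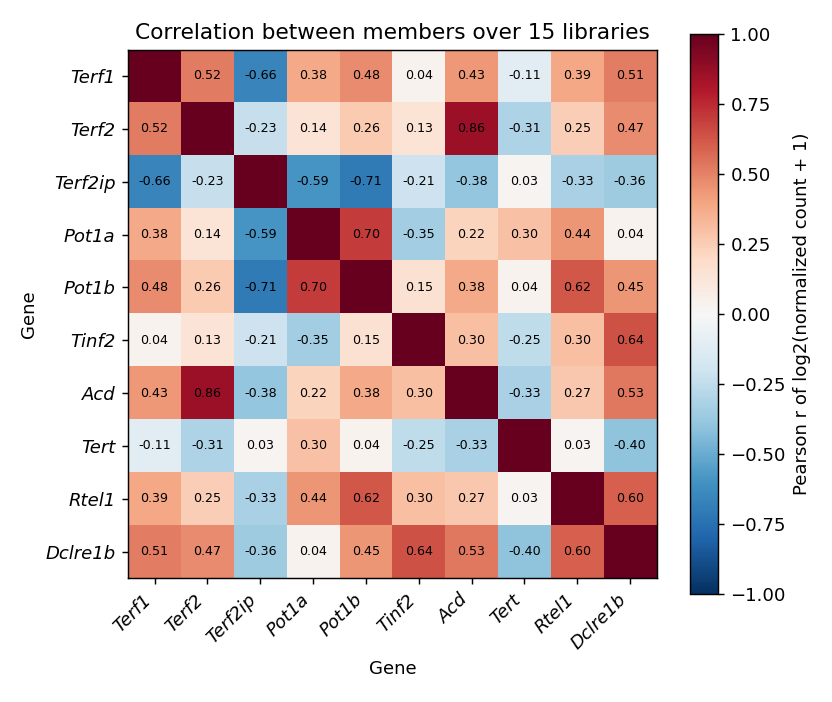
Pearson r of log2(normalized count + 1) over 15 libraries for each pair of the 10 genes, from blue (-1) to red (1). Terf2 with Acd (0.86) and Pot1a with Pot1b (0.70) are the highest, and the Terf2ip row holds the 3 values below -0.5.

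**Figure D5:**
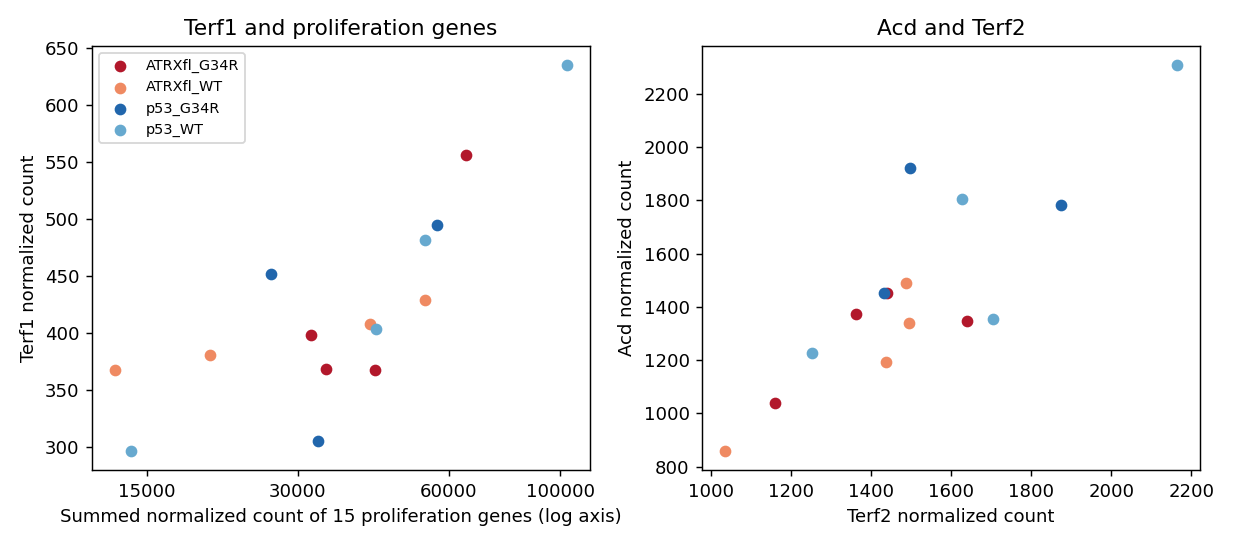
Left, Terf1 normalized count against the summed normalized count of 15 proliferation genes (log axis); right, Acd against Terf2 normalized count; 1 point per library, coloured by group. The highest library in both panels is p53_WT replicate 2 (Terf1 635, Acd 2308).

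None of the other telomere genes looked at passed the test, which 0.0% to 0.107% of all tested genes passed, depending on the comparison. A count of 0 in lists of this size is therefore near the share over all genes. Of 16 genes of the telomerase holoenzyme and its assembly (among them Dkc1, Naf1 and Wrap53), the 3 CST genes (Ctc1, Stn1 and Ten1, which fill in the C-rich strand), 26 further telomere-binding factors and 26 genes of telomere maintenance without telomerase, none was called in any of the 8 comparisons (limma), with 16, 3, 23 to 24 and 26 of them tested. Over both histones the median floxed minus intact log2 difference was -0.05, -0.19, -0.09 and -0.15 for these lists, and 20 of the 26 genes of maintenance without telomerase had a negative value, beside a median of 0.00 for all genes. The proliferation list had a median of -0.15 in the same comparison, and its part in the others was not tested.

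The telomerase list had a median of 0.29 in ATRXfl_G34R against ATRXfl_WT (12 of 16 positive) and of -0.29 in ATRXfl_WT against p53_WT (12 of 16 negative). These comparisons share the ATRXfl_WT libraries, and the proliferation list had medians of 0.58 and -0.58 in them. Naf1, an assembly factor for telomerase RNA particles, had the smallest p of the list in the first, 922 ± 244 against 648 ± 86.0 normalized counts (n = 4 each; log2 difference 0.48, SE 0.24; limma adjusted p = 0.9997).

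Of the telomere-binding factors, 2 of 24 tested had an unadjusted limma p under 0.05 in ATRXfl_G34R against p53_WT, where 4.37% of all genes did, and 1 of 24 over both histones, where 5.48% did. None of these passed adjustment. Fbxo4, an F-box protein that targets TRF1 for degradation, had the smallest p of its list in ATRXfl_G34R against p53_WT. Fbxo4 stood at 495 ± 60.2 in ATRXfl_G34R and 274 ± 70.9 in p53_WT (n = 4 each, log2 difference 0.88, SE 0.27, limma adjusted p = 0.9992). Over both histones it was 468 ± 104 in floxed and 341 ± 116 in intact tumours (log2 difference 0.46, SE 0.20; limma adjusted p = 0.910). Nr2f2, an orphan nuclear receptor found at telomeres of cells that lengthen them by recombination, was at 855 ± 136 in ATRXfl_G34R and 385 ± 298 in p53_WT (log2 difference 1.57, SE 0.62; limma adjusted p = 0.9992). Terf1, which encodes the TRF1 protein that Fbxo4 targets, was at -0.07 in that comparison (SE 0.30). That value is a transcript level, and TRF1 protein was not measured.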

How the data were processed

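Total RNA of the tumours was purified with the Qiagen RNeasy kit and sequenced as TruSeq mRNA libraries, per the labels' protocols. STAR 2.7, HTSeq, DESeq2 and mm10 are named in the submitters' processing notes; the annotation, the strand setting and other versions were not given in the sources used here. Each of 5 tables deposited by the authors holds 54232 genes for a pair of groups. Their library columns hold a signal, which is the read count divided by a size factor of the library, and all values were whole multiples of 1 read (100% within 0.01), so the reads could be recovered. A log2 fold change with standard error, the Wald statistic (a score), raw and adjusted p-values and the mean signal were deposited as well, per the file headers.

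The members and all gene lists were chosen with earlier results of these data known. Each pair of groups was fitted with limma 3.58.1 (trend, robust; R 4.3.3) on log2(value + 1) for genes averaging 10 or more, which all 10 members did, and p-values were adjusted over all of these genes by Benjamini-Hochberg. Folds are on that scale, which understates changes of low genes. Comparisons over both histones or Atrx states, the interaction, and values of single libraries use recovered reads scaled together by median of ratios over all 15 libraries; means of a pair use its own table. Gene IDs were matched to GENCODE vM21 (54165, 99.9%), whose exon lengths gave TPM. Alternatives were edgeR 4.0.16 and DESeq2 1.42.0 on the recovered reads, TMM scaling, no filter or a mean of 50, pseudocounts of 0.5 and 5, 1 fit of all groups, Xist as covariate (the labels give no sex), libraries that share a title code summed (3 pairs) and each library left out; leaving out both libraries rich in mature markers was added after seeing the data. Fits were run on simulated data with planted changes, where the only check was on the size of the estimated change and not on how many changes were called. Tables were read with the package data.table, version 1.17.8; sums and figures used Python 3.11.15 with pandas 2.3.3, NumPy 2.4.6, SciPy 1.17.1 and matplotlib 3.10.9. Genes named beside the members are the gene or genes most correlated with a member, those with the smallest p of each list, and the overlapping genes.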

Additional observations from a re-analysis of the deposited data

Results flagged for a closer look

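In groups of 4 libraries, a value was marked where its gap to the nearest other library took more of the group's range than Dixon's 95% critical value; chance marks about 1 in 20 groups, and 33 groups of 11 genes were looked at. Terf1 in ATRXfl_G34R replicate 4 stood at 556 normalized counts, above 368, 368 and 398 in the other libraries. Terf2 in ATRXfl_WT replicate 4 stood at 1035, below 1438, 1488 and 1495. ATRXfl_G34R replicate 4 also had the highest summed proliferation genes of its group, 64981. Whether either value has a technical source was not tested.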

How the results depend on the processing

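Across 1640 refits of single members under the alternatives, none was called and the smallest adjusted p was 0.311 (Acd over both histones with Xist as covariate, log2 -0.56); 1633 moved by less than the standard error of the reported value and 7 by more. Those 7 include Pot1a without ATRXfl_WT replicate 2 (above), Tinf2 in ATRXfl_G34R against p53_G34R with Xist as covariate (-0.27), and, without both libraries rich in mature markers, Rtel1 (-0.57), Pot1a (-0.49) and Pot1b (-0.26) in ATRXfl_G34R against p53_WT, Pot1b over both histones (-0.28) and Dclre1b in the interaction (0.47). The sign differed from the reported one in 171 refits, of which 2 had a reported log2 difference over 0.3. TMM scaling shifted the median of all genes by at most 0.02 in log2. Among floxed tumours Xist stood at 28 normalized counts or fewer in ATRXfl_G34R replicates 1, 2 and 4 and ATRXfl_WT replicates 1 and 3. Among intact ones it did so in p53_G34R replicate 2 and p53_WT replicate 2. All other libraries had 10675 or more, so low Xist was more frequent in floxed tumours.

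The counts of genes called over the whole table did change. DESeq2 called 34 genes for ATRXfl_G34R against ATRXfl_WT, 12 for p53_G34R against p53_WT, 113 for ATRXfl_G34R against p53_G34R, 74 for ATRXfl_WT against p53_WT, 77 for ATRXfl_G34R against p53_WT, 104 by Atrx status over both histones, 7 by histone over both Atrx states and 15 for the interaction, where limma called 0, 0, 4, 6, 4, 19, 0 and 0. For ATRXfl_G34R against p53_G34R the count was 12 with no filter and 0 with edgeR, with summed title codes or with Xist. For ATRXfl_WT against p53_WT it was 2 with a mean of 50, edgeR, summed title codes or Xist, and for ATRXfl_G34R against p53_WT it was 2 under these and with a pseudocount of 0.5. By Atrx status it was 12 with a mean of 50. Leaving out a library gave 0 to 5, 2 to 8 and 2 to 8 in these 3 pairs and 16 to 27 by Atrx status. The cause was not tested. No paired analysis was possible because the labels do not pair libraries between groups. The labels give no replicate numbers, and those used here only tell libraries apart. With 3 or 4 libraries a group, intervals were wide, widest for Tert, and the part of its few reads in that was not tested.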
